A study of Mus musculus with 2 samples.

Results

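The cells described here are neurogenic retinal progenitors that carried RNA of the proneural factors Atoh7 and Neurog2, in 2 single-cell RNA-seq libraries of mouse peripheral retina at E13.5. They were chosen by their counts of unique molecular identifiers (UMIs), each of which stands for 1 captured RNA molecule. A cell had to hold at least 5 UMIs of Atoh7, at least 1 of Neurog2, fewer than 3 of the ganglion and amacrine cell factor Isl1, and none of Otx2, a photoreceptor and bipolar factor, or of Ptf1a, an amacrine and horizontal cell factor. Kept cells were barcodes with 500 genes or more and mitochondrial UMIs up to 10%, and the rule found 288 of 9395 of them (3.07%), 203 of 5883 in the pigmented library and 85 of 3512 in the albino library. Measured values chose the cells, so the levels of these 5 genes are a description.

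Both libraries came from a-Cre;Td embryos. In these, a Cre transgene acting in the peripheral retina switches on the red fluorescent protein TdTomato. Optic cups of 3 embryos were pooled for each library, dissociated with papain and sorted for TdTomato. The strain of the pigmented library is labelled Tyrc2j, which is the name of a tyrosinase allele of albino mice and conflicts with the title of that sample, and the albino library is labelled Swizz ICR. The titles were followed here. Pigmentation, strain, embryo pool and library cannot be told apart. Each group is a single library, so no test between groups was made, and every interval is an exact 95% interval for counting error only. Where values come in pairs, the pigmented library is given first.

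Neurogenic progenitors stand between a dividing progenitor and the neurons it gives rise to. Proneural bHLH factors switch on Notch ligand genes and neuronal genes in these cells, while Notch signalling raises Hes genes that hold proneural genes down. In the embryonic retina Atoh7 is required for ganglion cells, the first neurons made, and Neurog2 marks progenitors that are about to give rise to neurons. Dll1, a Notch ligand gene, and Mybl1, a Myb family transcription factor gene, are markers of the same state that the rule did not use.

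The proximal promoters of 5 genes are shown because the results turn on them. They are the proneural genes of the rule, Neurod1 and Gadd45g, which led the genes higher than in otherwise like cells without Neurog2, and Hes5, a Notch target gene that was lower than in those cells. Each window holds 250 bases before and 50 after the RefSeq start site, on the gene's own strand of GRCm38.p6. In GENCODE the genes Atoh7 (from 63099651) and Neurod1 (from 79456751, minus strand) start inside their windows, before the RefSeq start. Part of the bases before the RefSeq start thus lies within these 2 GENCODE genes. The windows lie at chr10:63099535-63099834 (Atoh7, plus strand), chr3:127632886-127633185 (Neurog2, plus), chr2:79456587-79456886 (Neurod1, minus), chr13:51846425-51846724 (Gadd45g, plus) and chr4:154960673-154960972 (Hes5, plus). Capitals mark the E-box CANNTG, bound by bHLH factors, and the word GTGGGAA or its reverse complement TTCCCAC, which the Notch effector Rbpj can bind.
Atoh7: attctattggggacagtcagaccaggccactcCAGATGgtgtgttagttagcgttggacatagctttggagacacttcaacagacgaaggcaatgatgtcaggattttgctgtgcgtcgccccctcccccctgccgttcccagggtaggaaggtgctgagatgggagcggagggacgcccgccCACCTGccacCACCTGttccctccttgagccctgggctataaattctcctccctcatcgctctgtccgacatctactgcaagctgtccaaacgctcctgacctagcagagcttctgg
Neurog2: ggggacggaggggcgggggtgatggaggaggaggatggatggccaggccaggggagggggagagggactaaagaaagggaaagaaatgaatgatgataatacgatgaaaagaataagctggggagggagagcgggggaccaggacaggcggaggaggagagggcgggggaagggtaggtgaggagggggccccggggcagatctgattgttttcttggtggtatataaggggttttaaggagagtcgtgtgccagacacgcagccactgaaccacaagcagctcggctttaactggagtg
Neurod1: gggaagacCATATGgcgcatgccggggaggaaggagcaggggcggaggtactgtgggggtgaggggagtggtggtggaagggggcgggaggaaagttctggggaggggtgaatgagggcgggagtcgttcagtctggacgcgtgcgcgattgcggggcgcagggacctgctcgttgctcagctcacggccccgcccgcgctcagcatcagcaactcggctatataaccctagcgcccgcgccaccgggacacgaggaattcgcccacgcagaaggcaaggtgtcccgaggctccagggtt
Gadd45g: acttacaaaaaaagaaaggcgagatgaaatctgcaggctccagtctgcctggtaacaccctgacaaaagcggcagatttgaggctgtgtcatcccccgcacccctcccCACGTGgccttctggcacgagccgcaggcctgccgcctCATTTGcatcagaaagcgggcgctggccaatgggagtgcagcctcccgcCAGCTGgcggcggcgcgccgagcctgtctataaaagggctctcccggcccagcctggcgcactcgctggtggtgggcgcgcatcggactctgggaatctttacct
Hes5: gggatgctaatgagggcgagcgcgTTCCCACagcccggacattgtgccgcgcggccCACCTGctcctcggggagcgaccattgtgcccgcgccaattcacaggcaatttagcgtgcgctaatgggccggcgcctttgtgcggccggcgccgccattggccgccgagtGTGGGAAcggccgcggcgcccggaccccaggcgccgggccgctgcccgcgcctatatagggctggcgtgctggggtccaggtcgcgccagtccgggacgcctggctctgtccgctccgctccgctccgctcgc

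The Atoh7 window held 3 E-boxes, Gadd45g 3, Neurod1 1 and Hes5 1, and Neurog2 none. Hes5 held the Rbpj word 226 and 83 bases before the start, and the other windows did not hold it. Of all 32851 RefSeq mouse promoters of this length, 72.3% held an E-box and 6.38% the Rbpj word on either strand. A match describes letters and is not a binding site shown in these data.

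Atoh7 (ENSMUSG00000036816, chromosome 10, 63099651 to 63101279, plus strand of GRCm38) ranged from 5 to 243 UMIs a cell in the pigmented library, with a median of 49, and from 5 to 171 with a median of 37 in the albino library. Neurog2 (ENSMUSG00000027967, chromosome 3, 127633135 to 127635631, plus strand) ranged from 1 to 35 UMIs with a median of 3, and from 1 to 44 with a median of 2. Most cells lay far above the Atoh7 limit, while 62 pigmented and 25 albino cells stood at that of Neurog2, with exactly 1 UMI. Just outside the rule, 6 pigmented and 3 albino cells had 4 Atoh7 UMIs, as many as had 5, and 336 and 191 had no Neurog2 UMI. Of cells that fitted the rest of the rule, 385 pigmented and 213 albino ones held Otx2, 82 and 52 of them with 1 UMI. The median neurogenic cell held 9758 UMIs in the pigmented and 10691 in the albino library, beside 10448 and 11239 over all kept cells.

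**Figure D1:**
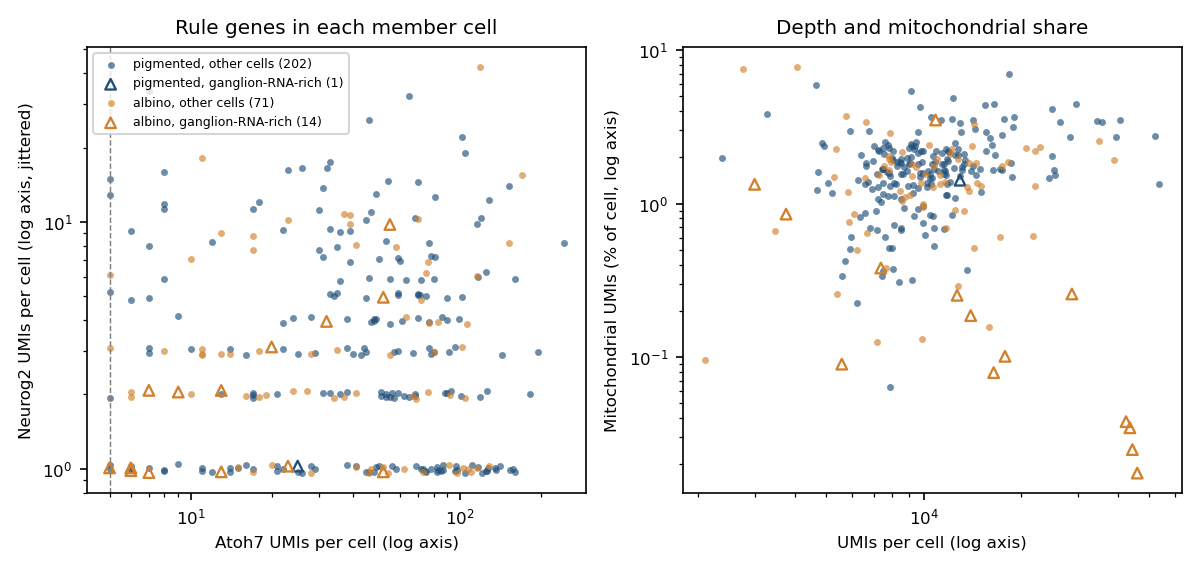
Left, Atoh7 against Neurog2 UMIs in each of the 288 neurogenic cells (log axes, Neurog2 jittered, dashed line at the rule's 5 Atoh7 UMIs). Right, UMIs per cell against the mitochondrial share of UMIs (log axes). Triangles are cells with at least 10 UMIs over 5 ganglion cell genes, 1 pigmented and 14 albino, and the median mitochondrial share of the albino triangles is 0.143% against 1.49% for the other albino cells.

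Free RNA from broken cells enters droplets, and mesenchyme cells in the sort (at least 3 UMIs each of the collagen genes Col1a2 and Col3a1) served as its measure. Of these cells 11.4% (20 of 176) and 10.3% (10 of 97) had at least 5 Atoh7 UMIs, and 7.39% and 3.09% at least 1 of Neurog2. The whole rule was met by 3 pigmented (1.70%, interval 0.353% to 4.90%) and 1 albino (1.03%, 0.0261% to 5.61%) mesenchyme cells, which are among the 288. The median depths of the mesenchyme cells were 14357 and 13719 UMIs. These intervals include the overall shares of 3.45% and 2.42%, so the rule alone does not set its cells apart from free RNA or doublets, whose part was not tested. The markers outside the rule differed more: a Dll1 UMI was found in 54.7% and 43.5% of neurogenic cells and 3.98% and 1.03% of mesenchyme cells, and a Mybl1 UMI in 80.8% and 82.4% against 13.6% and 9.28%. Thinned to 5000 UMIs a cell, the Dll1 shares were 36.2% and 32.9% against 2.29% and 1.08%. The 8 mesenchyme markers summed to 41.9 and 50.5 CPM (UMIs per 1000000 UMIs of the same cells) in the neurogenic cells, with 8 and 6 of the 8 detected. Scrublet, a doublet caller, marked 9 pigmented and 2 albino neurogenic cells, which were kept. The libraries shared 8 barcodes.

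In the albino library 14 of the 85 cells stood apart. They were singled out after the values were seen, as cells with at least 10 UMIs over the ganglion cell genes Sncg, Nefl, Nefm, Gap43 and Stmn3, and 1 pigmented cell passed the same limit. These 14 cells held 26.7% of the UMIs of the albino neurogenic cells, 437 of their 451 Sncg UMIs, 178 of 185 Nefl UMIs and all 43 of Calb2, but none of the 103 Dll1 UMIs. The cells were chosen by Sncg and Nefl among others, so their part of those UMIs is high by construction. They held from 2997 to 45857 UMIs, with a median mitochondrial share of 0.143% beside 1.49% in the other 71 cells. They also held 65 of the 67 UMIs of the peptide gene Sst and 18 of the 20 of Krt15, a keratin gene of surface ectoderm. The 18 ganglion cell genes summed to 831 CPM in pigmented and 2792 CPM in albino neurogenic cells, and to 813 CPM in the albino cells without these 14. The list includes the genes that chose the 14 cells, so the lower sum without them is in part by construction. Albino values hold these cells unless it is said that they are left out. Since they add UMIs to the total, the albino level of a gene they lack is higher without them, as for Dll1 with 127 in place of 92.8 CPM. The origin of these cells was not tested.

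Retinal progenitors without a UMI of the 5 rule genes served as the comparison (1144 pigmented and 580 albino cells). Of 9107 genes with at least 50 UMIs in each library, 119 (1.31%) were at least 2-fold higher in the neurogenic cells in both libraries and 205 (2.25%) at least 2-fold lower. Without the ganglion-RNA-rich cells these were 132 (1.46%) and 181 (2%) of 9036. Gene lists were counted over genes with at least 20 UMIs in all, over both sets and libraries, of which 2.39% of 12934 were higher and 3.98% lower by the same fold, or 2.49% and 3.86% of 12897 without those cells. The median log2 ratio of all genes was -0.10 in the pigmented and -0.13 in the albino library. A summed level cannot tell fewer positive cells from less RNA per cell.

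Of 11 Notch ligand and Fringe genes, 7 were at least 2-fold higher in both libraries (Dll1, Dll3, Dll4, Jag1, Mfng, Lfng and Dner) and 1 lower (Dlk1, a non-canonical ligand gene), with median log2 ratios of 1.56 and 1.48. Dll1 (ENSMUSG00000014773, chromosome 17) stood at 102 and 92.8 CPM against 7.49 and 4.43 CPM in the progenitors, or 13.7 (10.8 to 17.5) and 21 (13.8 to 32.8) times. Its exons overlap A930024N18Rik on the opposite strand, and the strand setting of the counting is unknown here. Dll4, a ligand gene also known from vessels, stood at 30.9 and 18 CPM against 0.303 and 0.611 CPM. Dll3, whose product acts inside the cell, stood at 36 and 20.7 CPM against 1.97 and 3.21 CPM. All 3 Delta genes were thus many times higher than in progenitors in both libraries, while Mib1, the ubiquitin ligase gene that ligands need for endocytosis, was at 52.1 and 36.1 CPM against 43.6 and 45.7 CPM. Mfng, which adds sugars to Notch receptors, stood at 119 and 100.1 CPM against 5.22 and 5.8 CPM, and its relative Rfng at 7.62 and 11.7 CPM against 10.8 and 10.2 CPM. With a limit of 2 UMIs, 71 and 23 cells were positive for Dll1, 21 and 3 for Dll3 and 20 and 5 for Dll4. Of these, 11 and 1 held both Dll1 and Dll3, and 7 and 2 both Dll1 and Dll4. At least 1 Delta gene reached that limit in 91 of 203 pigmented and 28 of 85 albino cells.

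On the receiving side 4 of 10 genes were at least 2-fold higher (Notch1, Rbpj, Hes5 and Heyl) and 2 lower (Notch3 and Hes1), with medians of 0.26 and 0.58. Hes1 and Hes5, both repressor genes downstream of Notch, differed in opposite directions. Hes1 stood at 221 and 195 CPM against 706 and 713 CPM, or 0.313 (0.286 to 0.342) and 0.273 (0.237 to 0.313) times the progenitor level. Hes5 (overlapping Gm20421 on the opposite strand) stood at 456 and 415 CPM against 168 and 175 CPM, or 2.72 (2.52 to 2.92) and 2.37 (2.13 to 2.65) times. Hes5 was spread unevenly, with a median of 2 and 2 UMIs, an upper quartile of 8 and 8 and highest cells of 42 and 55. Rbpj, the DNA-binding partner of cleaved Notch, stood at 383 and 274 CPM against 113 and 108 CPM, and Notch1 at 121 and 87.4 CPM against 38.3 and 37.4 CPM. Nrarp, a feedback gene of Notch, was near the progenitor level at 42.3 and 45.1 CPM against 44.5 and 53.9 CPM.

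In the proneural list the bHLH genes Neurod1, Neurod4, Olig2, Bhlhe22 and Nhlh2 and the Hes1 antagonist Hes6 were at least 2-fold higher (6 of 13), the inhibitor gene Id3 lower, and the medians were 0.66 and 1.45. Neurod1, which acts downstream of proneural genes, stood at 438 and 305 CPM against 3.1 and 1.22 CPM, or 141 (103 to 198) and 249 (125 to 582) times. It overlaps Cerkl and Gm26755, so some of its UMIs are uncertain. A Neurod1 UMI was found in 74.9% and 69.4% of the cells, with medians of 3 and 2 UMIs and highest cells of 32 and 19. Hes6 stood at 1397 and 1275 CPM against 109 and 113 CPM, with a UMI in 99.5% and 100% of cells and a median of 13 and 13 UMIs. The share with a UMI was 51.1% and 43.3% in mesenchyme cells and 58.9% and 60.5% in progenitors, with medians of 1 and 0 and of 1 and 1 UMIs. Id3 stood at 317 and 604 CPM against 1150.3 and 1233 CPM, and at 349 CPM in albino cells without the ganglion-RNA-rich ones.

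Of 17 neurogenic progenitor genes 16 were at least 2-fold higher in both libraries, with medians of 4.14 and 4.03 (3.79 in albino without the 14 cells). The list was drawn up with such cells of these data known, so its count is no independent evidence. Mybl1 (ENSMUSG00000025912, chromosome 1, 9667415 to 9700209, minus strand) stood at 195 and 178 CPM against 11 and 10.7 CPM, or 17.7 (14.6 to 21.4) and 16.6 (12.6 to 22.1) times. Insm1, a zinc-finger gene of cells leaving the progenitor pool, stood at 155 and 113 CPM against 22.5 and 17.4 CPM. Srrm4, the splicing factor gene of neuronal microexons, stood at 262 and 142 CPM against 2.65 and 5.04 CPM. Sox11, a neuronal Sox gene, missed the limit in the albino library, at 759 and 612 CPM against 361 and 336 CPM. Igfbpl1 depended on the 14 cells: it stood at 60.9 and 179 CPM with them and 40.6 CPM in albino cells without them, against 1.59 and 2.9 CPM, and its albino log2 ratio was 3.79 in place of 5.92.

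**Figure D2:**
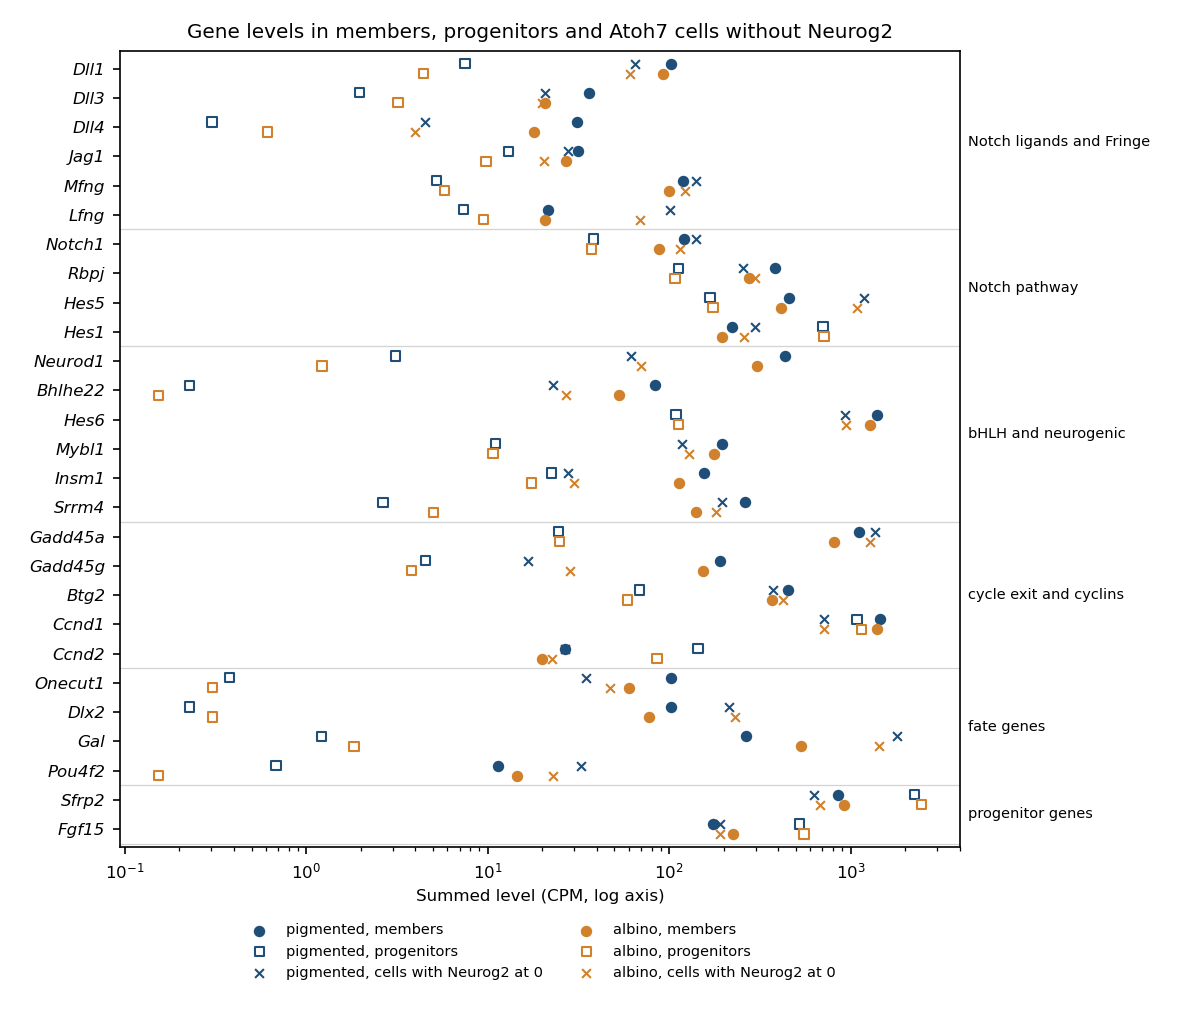
Summed level in CPM (log axis) of 27 genes in neurogenic cells (filled circles), progenitors (open squares) and cells that fit the rule but for a Neurog2 count of 0 (crosses), in the pigmented and albino library. Filled circles of Neurod1, Bhlhe22, Dlx2 and Gadd45a lie far right of the squares in both libraries, those of Ccnd2, Hes1 and Sfrp2 lie left, and the crosses of Hes5, Gal and Lfng lie right of the circles.

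Genes of cell cycle exit and of the cycle itself were both present. Of 14 exit genes 3 were at least 2-fold higher (Btg2, Gadd45a and Gadd45g) and 1 lower (Ccng1), with medians of 0.29 and 0.13. Gadd45a, a stress and growth-arrest gene (overlapping E230016M11Rik on the opposite strand), stood at 1113 and 813 CPM against 24.6 and 24.9 CPM, or 45.3 (40.3 to 51) and 32.7 (27.6 to 38.8) times. Its relative Gadd45g stood at 190.4 and 154 CPM against 4.54 and 3.82 CPM, and the antiproliferative gene Btg2 at 452 and 370.5 CPM against 68.7 and 58.8 CPM. The kinase inhibitor genes did not share this: Cdkn1b stood at 62.2 and 68.5 CPM against 65.9 and 68.6 CPM and Cdkn1c at 198 and 169 CPM against 352 and 288 CPM. None of 18 S phase and none of 18 G2/M genes was 2-fold apart in both libraries, with medians of 0.08 and 0.03 for S phase and 0.33 and 0.05 for G2/M. Pcna, the polymerase clamp gene, stood at 329 and 349.8 CPM against 300.2 and 304 CPM, and its pigmented log2 ratio of 0.13 was -0.10 among cells with Xist and no Y-linked UMI. Top2a, a mitosis gene, stood at 592 and 486 CPM against 449 and 452 CPM.

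The D cyclin genes differed from each other. Ccnd1 stood at 1449.8 and 1395 CPM against 1084 and 1148 CPM, or 1.34 (1.29 to 1.39) and 1.22 (1.15 to 1.28) times. Ccnd2, the cyclin gene of the study's title, stood at 26.7 and 19.8 CPM against 144 and 85.8 CPM, or 0.185 (0.141 to 0.237) and 0.231 (0.144 to 0.353) times. A Ccnd2 UMI was found in 13.8% and 14.1% of neurogenic cells and 40% and 29.3% of progenitors. For Ccnd1 these shares were 85.2% and 83.5% against 98.3% and 98.8%. Its medians were 13 and 8 UMIs in neurogenic cells against 10 and 10, with upper quartiles of 24.5 and 28 against 16 and 18. Fewer neurogenic cells thus held Ccnd1, though its summed level was higher. Both genes overlap others on the opposite strand (Ccnd2 with Gm43126 and 9330179D12Rik, Ccnd1 with LTO1). Ccnd3 stood at 55.9 and 75.7 CPM against 133 and 123 CPM. Of 16 G1/S regulators Ccnd2 and Myc were at least 2-fold lower in both libraries and none was higher.

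All 14 progenitor genes were lower in both libraries, as were 44.3% of the 12934 genes counted for lists, and 7 of the 14 were lower by at least 2-fold (among them Six6, Fgf15, Sfrp2, Hmga2, Nr2e1 and Cdon, and 5 genes without the ganglion-RNA-rich cells), with medians of -1.01 and -1.20. Sfrp2, a secreted Wnt antagonist gene (overlapping Gm26771 on the opposite strand), stood at 851 and 923 CPM against 2259.8 and 2471 CPM, and the growth factor gene Fgf15 at 174 and 224 CPM against 523 and 554 CPM. Pax6, the eye field factor gene, differed less, at 372 and 356 CPM against 497 and 466 CPM. Of 12 ciliary margin genes 8 were at least 2-fold lower (6 without the ganglion-RNA-rich cells), such as Wfdc1 at 30.9 and 45.1 CPM against 139.8 and 121 CPM and Zic1 at 40.6 and 32.5 CPM against 127 and 113 CPM. Against the same share of all genes, 13 of 15 immediate early genes were lower in both libraries, 2 of them at least 2-fold (Atf3 and Hspa1a), and Btg2 was higher. Fos stood at 202 and 114 CPM against 393 and 279.9 CPM.

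Genes were ordered by the interval limit closer to 1. The 15 with the highest ratios were Gal, Neurod1, Dlx2, Bhlhe22, Insm2, Onecut1, Dlx1, Ppp1r14a, Gadd45a, Gadd45g, Igfbpl1, Tubb3, Srrm4, Rassf4 and Eya2. The 12 with the lowest were Hes1, Ccnd2, Otx1, Trpm3, Cdh6, Sfrp2, Zic1, Myo1c, Mest, Tgfb2, Gfod2 and Etv1. Onecut1, a horizontal and ganglion cell factor gene, stood at 103 and 60.4 CPM against 0.378 and 0.305 CPM. Dlx2, a homeobox gene of ganglion and amacrine precursors, stood at 102 and 77.5 CPM against 0.227 and 0.305 CPM, where the progenitors held 3 and 2 UMIs. Gal, which encodes the peptide galanin, stood at 265 and 532 CPM against 1.21 and 1.83 CPM. Genes of later precursors were thus present here and nearly absent from the progenitors. Those progenitors were chosen for having no UMI of the 5 rule genes, so this near absence is in part by construction. Mesenchyme cells, which were not chosen by the rule genes, held a Dlx2 UMI in 7.39% and 7.22% of cells, against 0.262% and 0.345% of progenitors. The neuronal tubulin gene Tubb3 stood at 465 and 862 CPM against 19.5 and 18.9 CPM, and at 489.6 CPM in albino cells without the 14. Some of the lowest rest on few UMIs, such as Myo1c with 7 pigmented and 1 albino UMIs in the neurogenic cells.

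**Figure D3:**
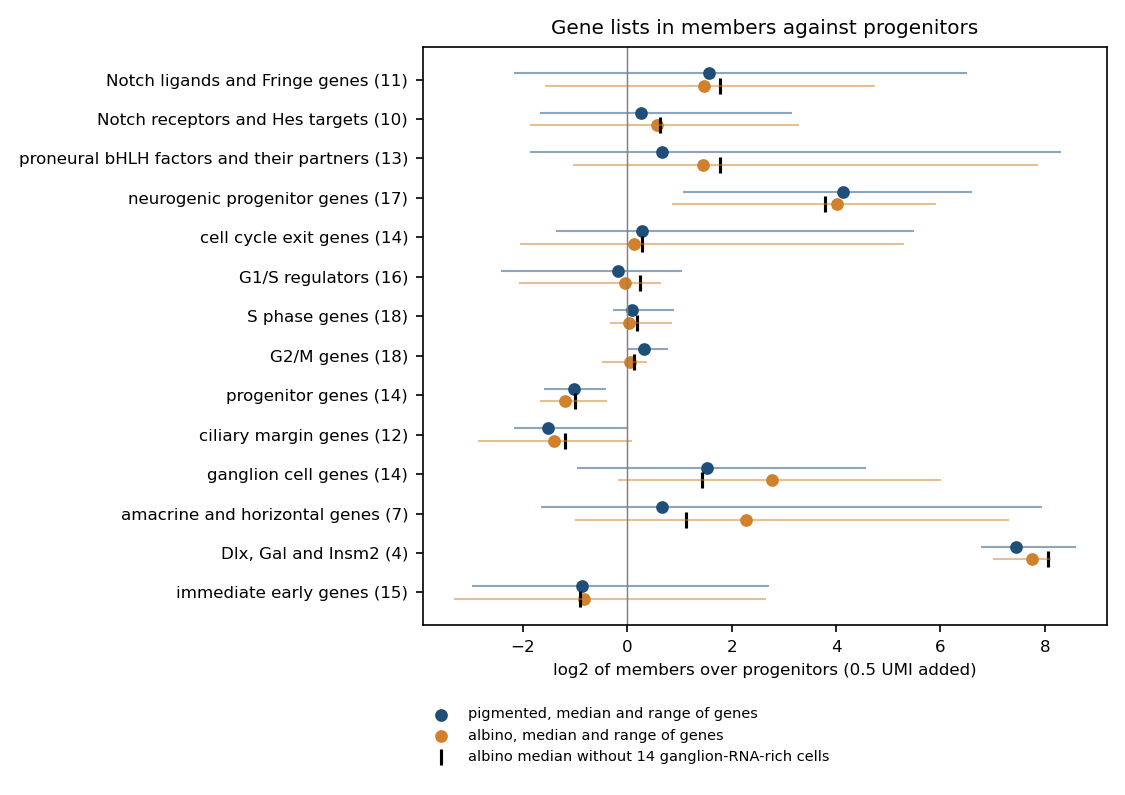
Median log2 ratio of neurogenic cells over progenitors for 14 gene lists (circles) with the range over their genes (lines), per library, with 0.5 UMI added per gene and set. Black ticks give the albino median without the 14 ganglion-RNA-rich cells. The ganglion cell list, which holds the genes that chose those 14 cells, moves from 2.77 to 1.42. The S phase list lies near 0 in both libraries.

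The precursor genes were carried by part of the cells each. With at least 2 UMIs as the limit, Neurod1 was positive in 63.1% and 57.6% of pigmented and albino cells, Dlx2 in 28.6% and 27.1%, Onecut1 in 28.1% and 17.6% and Gal in 15.3% and 29.4%. Of the 31 pigmented Gal cells 7 were also positive for Neurod1, and 7 of the 25 albino ones. Of the 58 pigmented Dlx2 cells 30 were positive for Neurod1 and 21 for Onecut1. In the 71 albino cells left without the ganglion-RNA-rich ones, the shares were 63.4% for Neurod1, 28.2% for Dlx2, 19.7% for Onecut1 and 21.1% (15 cells) for Gal. Pou4f2, the factor gene of committed ganglion cells, reached 2 UMIs in 6 and 3 cells, and in 0 albino cells without the 14, which left 1 of its 16 albino UMIs. Crx, a photoreceptor gene, and the amacrine gene Tfap2b reached it in no cell of either library, among cells that the rule had already chosen for having no Otx2 or Ptf1a UMI. Thinned to 5000 UMIs, which left out 7 pigmented and 6 albino cells, Onecut1 had a UMI in 37.2% and 25.3% of neurogenic and 1.14% and 3.23% of mesenchyme cells, and at full depth in 51.7% and 37.6% against 5.68% and 8.25%. For Dlx2 the thinned shares were 35.2% and 31.6% against 1.71% and 5.38%.

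Cells that met the rule in every point but Neurog2, with 0 UMIs of it, were the nearest neighbours (336 pigmented and 191 albino cells). Of 6256 genes, 6 (0.0959%) were at least 2-fold higher in the neurogenic cells in both libraries and 22 (0.352%) at least 2-fold lower, in a ranking added after the data were seen. By the interval limit closer to 1, Gadd45g, Neurod1 and Insm1 led the higher genes, and Crabp1 and Ccnd1 were among the first 6. Gadd45g stood at 190.4 and 154 CPM against 16.6 and 28.5 CPM, or 11.5 (8.66 to 15.5) and 5.41 (3.99 to 7.44) times. Neurod1 stood at 438 and 305 CPM against 61.8 and 70 CPM, or 7.08 (6.09 to 8.27) and 4.35 (3.57 to 5.34) times. Ccnd1 stood at 1449.8 and 1395 CPM against 712 and 718 CPM, so the cyclin gene was also higher beside the bHLH gene. For Crabp1, a retinoic acid binding protein gene, a single cell held 43.3% of the UMIs of the pigmented neurogenic cells.

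In the other direction the order began with Gfod2, Gal, Hes5, Igfbp5, Lfng and Insm2. Hes5 stood at 456 and 415 CPM against 1185 and 1092 CPM in the cells without Neurog2, or 0.385 (0.36 to 0.412) and 0.38 (0.343 to 0.42) times. Gal stood at 265 and 532 CPM against 1814 and 1435 CPM, Dlx2 at 102 and 77.5 CPM against 214 and 231 CPM and Lfng at 21.6 and 20.7 CPM against 101 and 69.5 CPM. The gene lunatic fringe (Lfng) was thus lower than in these cells but higher than in progenitors. Dll1 stood at 102 and 92.8 CPM against 64.8 and 61 CPM, or 1.58 (1.31 to 1.91) and 1.52 (1.16 to 2) times, and Gadd45a at 1113 and 813 CPM against 1371 and 1273 CPM. Atoh7 itself stood at 4921 and 3639 CPM against 6365 and 6722 CPM.

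Within the neurogenic cells the same genes were followed over cells with 1 Neurog2 UMI (62 pigmented and 25 albino cells), 2 to 3 (52 and 33) and 4 or more (89 and 27). Median depths ranged from 9627 to 10099.5 UMIs in the pigmented and from 9901 to 12080 in the albino library. Neurod1 stood at 170.3, 295 and 716 CPM in the pigmented and 170.04, 301 and 385 CPM in the albino library. Gadd45g stood at 51.8, 105 and 342 CPM and at 20.2, 182 and 203 CPM. Both genes were thus highest in cells with the most Neurog2. Dll1 stood at 74.1, 70 and 144 CPM and at 60.7, 88.8 and 115 CPM. Hes5 was highest in cells with 1 Neurog2 UMI, at 773, 446 and 249 CPM in the pigmented and 777, 292 and 329 CPM in the albino library. It fell over all bins only in the pigmented library. Gal stood at 690.2, 124 and 74.8 CPM and at 1915, 192 and 80.6 CPM. With a minimum of 2 Neurog2 UMIs the log2 ratio of Gal to progenitors was 6.25 in place of 7.73 in the pigmented and 6.16 in place of 8.12 in the albino library. The mitosis gene Top2a varied less, at 656, 607 and 538 CPM and at 462, 460.2 and 525 CPM. These bins are ranges of a count and not cell types.

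**Figure D4:**
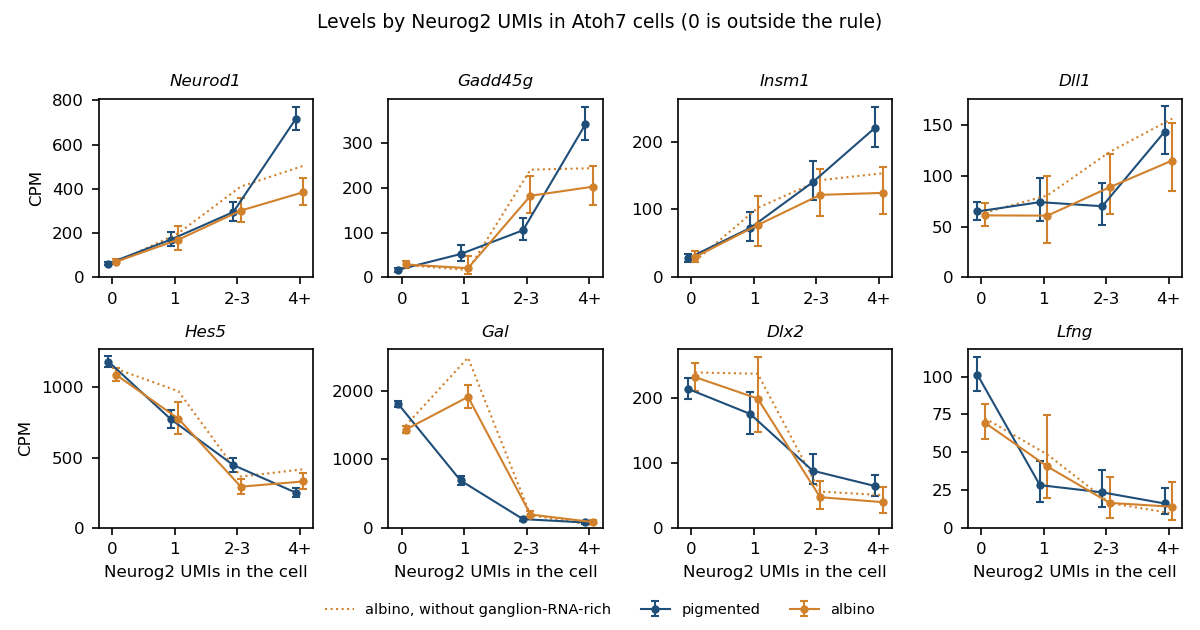
Levels in CPM of 8 genes by the number of Neurog2 UMIs in a cell, per library, with exact 95% counting intervals as bars, for cells that fit the rest of the rule. Cells with 0 are outside the rule, and dotted lines leave out the albino ganglion-RNA-rich cells. In the pigmented library Neurod1 and Insm1 are higher and Hes5, Dlx2 and Lfng lower toward the right.

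By Atoh7 count, 25 pigmented and 11 albino cells had 5 to 9 UMIs, 18 and 19 had 10 to 19, and 160 and 55 had 20 or more. Gadd45a stood at 271, 299 and 1339 CPM in the pigmented and 189, 335 and 1101 CPM in the albino library. Dlx2 stood at 0, 9.2 and 129 CPM and at 19.5, 21.4 and 108 CPM. Both were highest with the most Atoh7. The progenitor gene Sfrp2 was lowest there, at 1368, 1329 and 715 CPM and at 1170.3, 1445 and 702 CPM. Dll1 had 129, 82.8 and 101 CPM in the pigmented and 58.5, 98.6 and 98.3 CPM in the albino library, or 151, 111 and 129.8 CPM in albino cells without the ganglion-RNA-rich ones, so the albino order turned on those cells. Bins under 20 cells are thinly filled, and the lowest albino bin holds 5 cells without the ganglion-RNA-rich ones.

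By cycle genes, each cell was thinned to 5000 UMIs and called G2/M with at least 5 UMIs over the 18 G2/M genes, or otherwise S with at least 3 over the 18 S phase genes. Of the neurogenic cells 68.9% (135 of 196, 61.9% to 75.3%) and 68.4% (54 of 79, 56.9% to 78.4%) were called G2/M, 25.5% and 24.1% S, and 5.61% and 7.59% neither. Of the progenitors 57.1% and 61.6% were called G2/M and 2.85% and 1.28% neither. Of ganglion precursors (at least 3 Isl1 and 1 Pou4f2 UMIs) 5.73% and 5.72% were called G2/M and 62.1% and 59.7% neither. By the G2/M calls the neurogenic cells lay nearer to the progenitors than to the ganglion precursors. Many ganglion precursors stood at the S limit, 40.9% and 40.3% of them with 2 or 3 S phase UMIs. Thinned to 8000 UMIs under the same limits, 6.12% and 6.77% of them were called G2/M, 56.6% and 57.6% S and 37.3% and 35.6% neither, beside 74.5% and 82.5% called G2/M and 1.38% and 1.75% neither among the neurogenic cells. Mesenchyme cells had 40.6% and 38.7% called G2/M, and the part of free RNA in these calls was not tested. Close to the limit, 15 pigmented and 3 albino neurogenic cells had 4 or 5 G2/M UMIs.

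The 11 pigmented and 6 albino cells called neither differed in neuronal genes. Tubb3 stood there at 1965 and 2236 CPM, against 285 and 805 CPM in the G2/M cells (320.3 CPM in albino without the ganglion-RNA-rich cells). Onecut2, a relative of Onecut1, stood at 818 and 439.9 CPM against 88.1 and 52.3 CPM, and Ccnd1 at 395 and 128 CPM against 1561 and 1249.9 CPM. The ganglion-RNA-rich cells were included in all values of the cells called neither, of which 10 pigmented and 4 albino ones remained without them. With them included, the neuronal genes were higher and the cyclin gene lower in the few cells called neither. Gadd45a was present throughout, at 1674 and 1833 CPM against 1034 and 702 CPM.

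By Isl1, 173 pigmented and 64 albino cells had 0 UMIs, 15 and 10 had 1 and 15 and 11 had 2. Without the ganglion-RNA-rich cells 4 albino cells with 2 remained. Neurog2, like Isl1 a rule gene, stood at 444, 295 and 237 CPM over these bins in the pigmented and 381, 338 and 115 CPM in the albino library. Without the ganglion-RNA-rich cells its albino level was higher at 1 than at 0 Isl1 UMIs. The 4 albino cells left with 2 Isl1 UMIs held 1 Neurog2 UMI each. Gadd45a stood at 1058, 1220.05 and 1686 CPM in the pigmented and 793, 1228 and 697 CPM in the albino library. The albino values were 851, 1696 and 2191 CPM without the ganglion-RNA-rich cells, on which their order depended.

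Otx2 precursors (at least 2 Otx2 and under 3 Isl1 UMIs, no Ptf1a, 658 and 323 cells) shared many of these levels. Hes6 stood at 1397 and 1275 CPM against 1341 and 1251 CPM in the Otx2 precursors, or 1.04 (1 to 1.08) and 1.02 (0.961 to 1.08) times. Mybl1 stood at 195 and 178 CPM against 209 and 219 CPM, or 0.932 (0.839 to 1.03) and 0.811 (0.692 to 0.946) times, and so was not higher in the cells chosen here. Neurod4, a bHLH gene of photoreceptor and bipolar precursors, stood at 7.62 and 14.4 CPM against 271 and 205 CPM, and Neurod1 at 438 and 305 CPM against 837 and 679.8 CPM. Dll4 stood at 30.9 and 18 CPM against 82.5 and 82.6 CPM, while Dll1 was 1.63 (1.39 to 1.9) and 1.49 (1.18 to 1.87) times the level in the Otx2 precursors. The Delta genes thus differed in direction between these sets. Hes5 had 2.56 (2.37 to 2.78) and 3.44 (3.03 to 3.9) times and Ccnd1 3.08 (2.94 to 3.23) and 2.49 (2.34 to 2.66) times that level.

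The share of neurogenic cells was 3.45% (3.00% to 3.95%) in the pigmented and 2.42% (1.94% to 2.98%) in the albino library, and the albino share was 0.701 (0.538 to 0.908) times the pigmented one. Without the ganglion-RNA-rich cells the shares were 3.43% and 2.02%. All 85 albino cells had Xist and no Y-linked UMI, while 47.8% of the pigmented ones had Y-linked UMIs and no Xist, so the sex of the embryos differed between the libraries as well.

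Between the libraries, 235 of 6527 genes (3.6%) were at least 1.5-fold higher in the albino neurogenic cells and 471 (7.22%) at least 1.5-fold lower. Without the ganglion-RNA-rich cells these were 294 (4.66%) and 241 (3.82%) of 6315. The 8 highest were Sncg, Nefl, Sst, Stmn3, Cxcl14, Olfr889, Gap43 and Nefm. Sncg, a synuclein gene, stood at 7.19 and 407 CPM and at 17.2 CPM in albino cells without the 14, and the axon growth gene Gap43 at 25 and 180.3 CPM and 20.9 CPM. Much of these differences thus lay in the 14 cells. Those cells were chosen by their UMIs of Sncg, Nefl, Nefm, Gap43 and Stmn3, so for these genes this is in part by construction. For the olfactory receptor gene Olfr889 a single cell held 92.5% of the albino UMIs. The 8 lowest were Fabp7, Cck, Aldh1a3, Zfp60, Tulp3, Sstr2, Hsd17b11 and Zfp646. A single pigmented cell held 74.7% of the Fabp7, 46.6% of the Zfp60 and 43.3% of the Tulp3 UMIs.

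**Figure D5:**
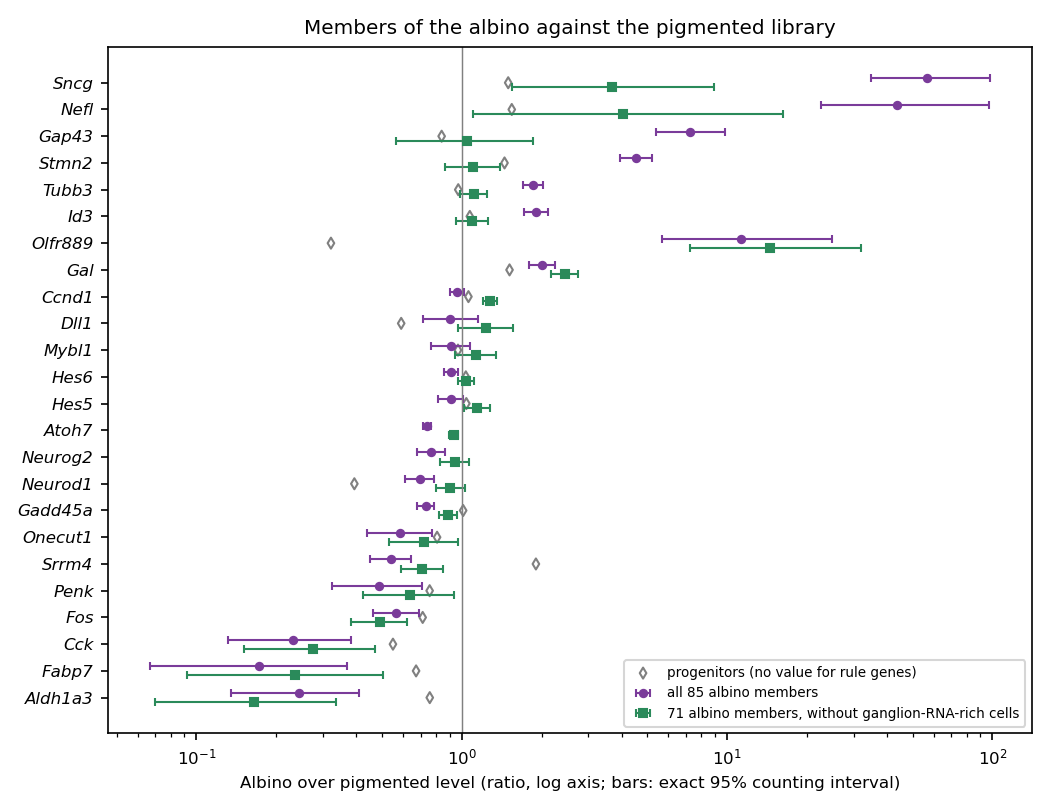
Albino over pigmented ratio of summed levels in neurogenic cells for 24 genes (log axis), with all 85 albino cells (circles) and without the ganglion-RNA-rich cells (squares), bars giving exact 95% counting intervals. Diamonds give the same ratio in progenitors. The circles of Sncg, Nefl, Gap43 and Stmn2 lie far right of their squares, while Gal, Cck and Aldh1a3 keep their side of 1 in both. Sncg, Nefl and Gap43 were among the genes that chose the ganglion-RNA-rich cells.

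The rule genes Atoh7 and Neurog2 lay nearer to 1 once those cells were left out. Atoh7 had an albino over pigmented ratio of 0.74 (0.713 to 0.767) with them and 0.931 (0.897 to 0.966) without. For Neurog2 the ratios were 0.768 (0.678 to 0.867) and 0.94 (0.826 to 1.07). Mybl1 had 0.91 (0.766 to 1.08) and 1.13 (0.945 to 1.34), and Dll1 0.907 (0.713 to 1.15) and 1.23 (0.967 to 1.56), so the intervals of both markers outside the rule included 1 either way. Without those cells the median log2 ratio was -0.26 for the 17 neurogenic progenitor genes, of which 2 were at least 1.5-fold lower (Penk and Myt1) and none higher, 0.12 for S phase and -0.09 for G2/M genes, beside 0.02 for all genes. Over genes with at least 20 UMIs, as in the lists, 6.72% were higher and 10% lower with those cells, and 8.62% and 6.7% without. Ccnd2 had ratios of 0.744 (0.436 to 1.23) and 0.78 (0.428 to 1.35) on 63 pigmented and 22 albino UMIs, so a difference was not detectable at this depth. In the progenitors its ratio was 0.594.

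Gal was higher in the albino cells either way, 2.01 (1.79 to 2.25) and 2.45 (2.18 to 2.75) times, in 40 pigmented and 32 albino cells with a UMI, and 1 cell held 28.3% of the albino UMIs. The cells with Neurog2 at 0 differed in the other direction, with a Gal UMI in 57.4% of pigmented and 44.5% of albino ones. In the progenitors Gal stood at 1.21 and 1.83 CPM, on only 16 and 12 UMIs. Onecut1 had ratios of 0.587 (0.441 to 0.773) and 0.723 (0.534 to 0.965), and Fos of 0.567 (0.463 to 0.691) and 0.491 (0.383 to 0.622). Fos is an immediate early gene, which answers quickly to stimuli, and its ratio in the progenitors was 0.712. Aldh1a3, a retinoic acid synthesis gene, stood at 59.2 and 14.4 CPM, with 0.243 (0.135 to 0.409) times the pigmented level, and 0.757 times in progenitors. Cck, which encodes cholecystokinin, stood at 66.4 and 15.3 CPM, with 64.7% of its 17 albino UMIs in 1 cell. The spread between litters or preparations is not known.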

How the data were processed

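Single-cell RNA-seq of TdTomato-sorted peripheral retina gave 1 pigmented and 1 albino library (69965728 and 46271969 UMIs in 6089 and 3676 barcodes), made with a 3' v2 droplet kit per the labels' protocols. The authors deposited matrices of raw UMI counts per gene and barcode. Cell Ranger 2.1.1 and mm10 are named in the submitters' processing notes, but version 5.0.1 stands in the file headers, and which of them made the counts is unsettled. Groups follow the sample titles.

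Barcodes were kept from 500 genes upward and up to 10% mitochondrial UMIs (5883 and 3512). Doublets were not removed: Scrublet (Scanpy 1.11.5), with a fixed score of 0.25, marked 142 and 50 cells, and their removal was an alternative. Progenitors were cells with no UMI of the rule genes and at least 1 of a progenitor marker gene, and a few genes, that marker among them, are not reported here. Levels are UMIs summed over a set of cells per 1000000 UMIs of the same cells (CPM). Ratios carry conditional exact 95% intervals, shares exact Clopper-Pearson intervals, and log2 ratios have 0.5 UMI added per gene and set. Each group is 1 library, so no test was run. Counts of genes use a fold of 2 against progenitors (at least 50 UMIs in each library) and of 1.5 between libraries (at least 50 UMIs in both together), and the 20 gene lists at least 20 UMIs. Named genes are the first 15 higher and 12 lower against progenitors and the first 8 each way between libraries, by the interval limit closer to 1, leaving out mitochondrial, ribosomal protein, haemoglobin, sex-linked, gene-model and rule genes. The neurogenic cells and the lists were chosen with earlier results of these data known. Promoters come from RefSeq (GRCm38.p6) and gene positions from GENCODE (GRCm38). Alternatives were other Atoh7 and Neurog2 limits, cell filters, scaling, gene limits and thinning depth and, added after the data were seen, leaving out ganglion-RNA-rich cells or cells over 30000 UMIs. The interval code was tested on simulated data. Tools were matplotlib 3.10.9, pandas 2.3.3, SciPy 1.17.1, NumPy 2.4.6 and Python 3.11.15.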

Additional observations from a re-analysis of the deposited data

Results flagged for a closer look

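For 10 genes the ratio of neurogenic cells over progenitors lay on opposite sides of 1 in the pigmented and albino libraries, with both counting intervals clear of 1. The difference was not tested, since each library is 1 sample. Uhrf1, Mki67, Cenpf and Gap43 were in the gene lists. The others were ranked for a difference between albino and pigmented neurogenic cells, with or without the ganglion-RNA-rich cells, so opposite sides are partly set by that choice. No share over all genes is given beside this count. Gap43, an axon growth gene, had ratios of 0.719 in the pigmented and 6.18 in the albino library, and the chemokine gene Cxcl14 0.391 and 6.44. Without the ganglion-RNA-rich cells Gap43 stood at 20.9 CPM and Cxcl14 at 4.92 CPM in the albino neurogenic cells, against 29.2 and 6.72 CPM in the albino progenitors. Gap43 was one of the genes that chose those cells. Olfr889, an olfactory receptor gene, had ratios of 0.356 and 12.5, with 92.5% of its albino UMIs in a single cell. Among genes of the cycle, Uhrf1, which maintains DNA methylation, had 1.21 and 0.793, the proliferation marker gene Mki67 1.14 and 0.854, and the kinetochore gene Cenpf 1.1 and 0.775. Without the ganglion-RNA-rich cells the albino ratios were 1 (0.781 to 1.27) for Uhrf1, 1.12 (0.95 to 1.31) for Mki67 and 1.02 (0.894 to 1.16) for Cenpf. Zfp60 had 2.18 and 0.653 and Tulp3 1.62 and 0.477, with 46.6% and 43.3% of the pigmented UMIs in a single cell. The tubulin gene Tuba1c had 1.5 and 0.644. Without those cells the albino ratios were 0.823 (0.517 to 1.25) for Zfp60, 0.6 (0.304 to 1.08) for Tulp3 and 0.41 (0.221 to 0.7) for Tuba1c. Parp1, a DNA repair gene, had 0.832 and 1.31, with 43.8% of the albino UMIs in a single cell, and 1.71 (1.45 to 2.01) in albino without those cells.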

How the results depend on the processing

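Of 84 alternative values for the counts and shares, 74 stayed within the limits set and 10 moved. With at least 20 in place of 50 UMIs a gene in each library, a stricter limit than the 20 in all of the lists, 195 genes were higher and 348 lower than in progenitors. With 20 in place of 50 UMIs over both libraries, 617 were higher and 919 lower in albino than in pigmented cells. At 50 UMIs the 471 genes lower in albino were 241 without the ganglion-RNA-rich cells and 272 with at most 30000 UMIs a cell. With every cell weighted equally 313 genes were lower than in progenitors. With a Neurog2 minimum of 2 the shares were 2.40% in the pigmented and 1.71% in the albino library, by construction fewer cells. Thinned to 8000 UMIs in place of 5000, with the same limit on more UMIs a cell, the G2/M share was 74.5% in the pigmented and 82.5% in the albino library. Among cells with Xist and no Y-linked UMI pigmented Pcna changed sign, to a log2 ratio of -0.10, and Dll1 had 4.46 in place of 3.77, Hes5 2.15 in place of 1.44, Dlx1 9.70 in place of 6.77 and Cdh6 -5.06 in place of -2.12. With the rule applied after thinning to 8000 UMIs pigmented Hes1 had -2.65 in place of -1.67 and albino Myo1c -0.51 in place of -3.24. The cause was not tested for the others. Of the 1469 alternative values for named genes and lists, 1345 stayed within limits, 123 moved and 1 changed sign. No paired analysis was possible because each group has 1 library.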
